A study of Mus musculus with 2 samples.

Results

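The 5 microRNA genes described here sit at imprinted loci of the mouse genome outside the Dlk1-Dio3 domain and were followed in the embryonic liver: Mir335 at Mest, Mir483 at Igf2, Mir675 at H19, and Mir296 and Mir298 at the Gnas and Nespas locus. They were chosen by name and locus, with earlier results of these data known, and all 5 were found among the 1973 microRNA genes counted. The tissue was healthy liver of strain B6NCrl at embryonic day 13.5, sequenced as 2 small RNA libraries that the labels number as biological replicates. Each came from a separate biosample of male and female embryos pooled, and RNA under 30 bases was selected. No genotype, allele or treatment is named, so there is 1 group and no comparison between groups. The number of embryos in a pool is not given in the sources used here.

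An imprinted gene is expressed mainly from the chromosome of 1 parent. Mest, which encodes a membrane protein of the hydrolase fold, and Igf2, which encodes a fetal growth factor, are expressed from the paternal copy, while the non-coding RNA H19 is expressed from the maternal copy next to Igf2. Gnas encodes the stimulatory G protein alpha subunit, and Nespas is a paternally expressed transcript that runs antisense to part of it. A microRNA is cut as an arm of a hairpin within a longer transcript, and bases 2 to 8 of the arm, the seed, set most of its pairing with target messengers. The counts carry no allele information, so the parental origin of the reads was not measured. In whole tissue, fewer cells of a type and less RNA per cell cannot be told apart.

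The mature arms of the 5 genes are shown first because their seeds decide whether the genes form a family. The sequences are those of RefSeq on build GRCm38.p6, matched by symbol for 5 of 5 genes, written 5′ to 3′ with the seed in capitals.
mmu-miR-335-5p: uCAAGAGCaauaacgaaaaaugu
mmu-miR-335-3p: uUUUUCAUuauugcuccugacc
mmu-miR-483-5p: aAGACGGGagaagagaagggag
mmu-miR-483-3p: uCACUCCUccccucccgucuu
mmu-miR-675-5p: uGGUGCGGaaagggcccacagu
mmu-miR-675-3p: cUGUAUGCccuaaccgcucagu
mmu-miR-296-5p: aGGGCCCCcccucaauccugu
mmu-miR-296-3p: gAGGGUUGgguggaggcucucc
mmu-miR-298-5p: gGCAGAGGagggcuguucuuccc
mmu-miR-298-3p: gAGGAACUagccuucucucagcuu

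The 10 arms have 10 different seeds, and 0 of them shares its seed with another gene among the 1738 mature sequences of that table. The 5 genes therefore share a kind of locus but no seed, also where they lie side by side as Mir296 and Mir298 do. Over bases 2 to 7 alone, 4 arms match another gene. Counts were available for 3 of those matching genes, which had at most 4 reads in a library: Mir6986 had 0 and 3, Mir3110 had 2 and 4, and Mir5621 had 0 and 1 in replicates 1 and 2. The arms of Mir483 stand out by composition: miR-483-5p holds 21 purines in 22 bases, and miR-483-3p, which lies opposite it in the hairpin, holds 19 pyrimidines in 21 bases.

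The hairpins are shown because each count in these tables is a sum over a whole hairpin. Both arms are in capitals.
Mir335: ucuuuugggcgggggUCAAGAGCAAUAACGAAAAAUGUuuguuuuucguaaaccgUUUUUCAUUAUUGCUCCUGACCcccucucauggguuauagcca
Mir483: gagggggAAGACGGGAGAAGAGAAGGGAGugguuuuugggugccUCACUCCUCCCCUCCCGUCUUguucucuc
Mir675: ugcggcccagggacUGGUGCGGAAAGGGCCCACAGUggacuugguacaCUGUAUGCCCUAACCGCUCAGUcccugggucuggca
Mir296: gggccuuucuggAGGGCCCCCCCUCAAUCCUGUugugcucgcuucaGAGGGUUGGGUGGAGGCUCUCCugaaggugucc
Mir298: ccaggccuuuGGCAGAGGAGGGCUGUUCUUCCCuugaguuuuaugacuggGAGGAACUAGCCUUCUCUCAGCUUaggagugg

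None of these 5 hairpins shares a word of 20 bases, on either strand, with another microRNA hairpin in RefSeq or in GENCODE M21. The 10 arms also occur in no annotated transcript other than the hairpin itself and, for Mir675, its host H19. Reads that mapped to several places, 36.7% of all reads in replicate 1 and 32.0% in replicate 2, are left out of gene counts, and copies of this kind were not found for the 5 genes among annotated transcripts. The genome outside annotated transcripts was not searched. No read fell on the strand opposite any of the 5 genes in either library.

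Levels are given as CPM, the reads on the strand of a gene per 1000000 such reads of the library. Replicate 1 held 2607403 of these reads and replicate 2 held 4286742. Reads that mapped to several places are in neither the counts nor these totals, so genes with copies elsewhere are undercounted. Shares and places of the 5 genes below are therefore among the counted reads only, and could be lower with those reads included, which was not tested. A gene with at least 10 reads in each library was taken as detected, which held for 367 of 1973 genes (18.6%) and for 5 of the 5 genes. Levels were not divided by length: annotated hairpins run from 73 to 98 bases and arms from 21 to 24, and the tables do not show where in a hairpin the reads lie. The order of levels is an order of read counts and was not calibrated to molecules. Mir122, the hepatocyte microRNA that marks liver, led all genes at 79994 ± 213 CPM (SD, n = 2). Of the listed endothelial genes, Mir126a stood at 56024 ± 2091 CPM, Mir221 at 438 ± 4.13 CPM and Mir222 at 259 ± 9.46 CPM. Of the listed mesenchymal genes, Mir143 stood at 18031 ± 716 CPM, Mir214 at 2023 ± 141 CPM and Mir145a at 287 ± 3.51 CPM. Mir199a-2 was at 22.2 ± 6.49 CPM and Mir199a-1 at 1.81 ± 1.24 CPM. Markers of other tissues were not absent: Mir375 of the pancreas stood at 1715 ± 91.3 CPM, Mir206 of skeletal muscle at 697 ± 247 CPM, and the neural Mir9-3 had 8 and 20 reads. The other 4 counted neural genes, of the Mir124a and Mir9 families with several copies, were at 0, which sets no limit on their level. The other listed pancreas genes were low, with Mir217 at 12.7 ± 0.478 CPM and Mir216a at 0.542 ± 0.224 CPM. Of the other listed muscle genes that were counted, Mir1a-1 had 1 and 0 reads, and Mir133a-1 and Mir133a-2 had 0. Among muscle genes outside the list, Mir499 had 722 and 1001 reads, Mir208b 145 and 327, and Mir133b 44 and 37. Mir208a had 25 and 81 reads, and Mir1b had 6 and 13. Copies of these muscle, endothelial and mesenchymal genes at other places were not looked for. The part of other tissues in the levels below was not tested.

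Mir335 stood far above the other 4 genes. It lies on the plus strand of chromosome 6 at 30741299 to 30741396 (mm10; ENSMUSG00000065501.1), within an intron of all 7 Mest transcripts that span it and on the strand of Mest. In human breast cancer cells it has been studied as a suppressor of metastasis. Mir335 had 113651 reads in replicate 1 and 164169 in replicate 2. These gave 43588 CPM (95% Clopper-Pearson interval 43340 to 43836) and 38297 CPM (38115 to 38479). The mean was 40942 ± 3741 CPM (SD, n = 2), or 4.09% of counted reads on microRNA genes. It took place 5 of the 367 detected genes in both libraries. Its nearest neighbours in level were Mirlet7g above, at 50434 and 43801 CPM, and Mir26b below, at 41732 and 36197 CPM in replicates 1 and 2. The difference in mean log2 CPM over 2 libraries was 0.20 for Mirlet7g and 0.07 for Mir26b. Both kept their side of Mir335 in each library, although the ranges of Mir335 and Mir26b overlap across libraries.

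Mir296 and Mir298 lie on the minus strand of chromosome 2, Mir296 at 174267047 to 174267125 (ENSMUSG00000065521.1) and Mir298 at 174267504 to 174267585 (ENSMUSG00000065410.1), with 378 bases between them. In GENCODE M21 neither overlaps another gene. The nearest is Nespas, annotated on the same strand, whose 3′ end lies 13.7 kb from Mir298 and 14.1 kb from Mir296, and Gnas starts on the opposite strand beyond that. Human miR-296 has been studied in the growth of blood vessels, and mouse miR-298 as a regulator of Bace1, the beta-secretase.

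Mir296 was the second of the 5 genes. It had 11977 and 16274 reads, or 4593 CPM (4512 to 4676) in replicate 1 and 3796 CPM (3738 to 3855) in replicate 2. Its mean was 4195 ± 564 CPM (SD, n = 2), at place 52. Mir298 had 5493 and 9008 reads, or 2107 CPM (2051 to 2163) and 2101 CPM (2058 to 2145), a mean of 2104 ± 3.77 CPM at place 72. Mir296 was thus the higher of this adjacent pair in both libraries. The ratio of Mir296 to Mir298 was 2.18 in replicate 1 (95% exact binomial interval 2.11 to 2.25) and 1.81 in replicate 2 (1.76 to 1.85), and the intervals, which cover counting error only, do not overlap. The log2 ratio averaged 0.99 ± 0.19 (SD, n = 2).

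Mir483 is encoded on the minus strand of chromosome 7 at 142654924 to 142654996 (ENSMUSG00000070140.1). It is intronic in all 7 Igf2 transcripts that span it and in the longer overlapping gene Gm49394, all on its strand. Human miR-483-3p has been studied as an inhibitor of the pro-apoptotic gene BBC3. Mir483 had 7507 reads in replicate 1 and 11904 in replicate 2, which gave 2879 CPM (2814 to 2945) and 2777 CPM (2727 to 2827). Its mean was 2828 ± 72.2 CPM (SD, n = 2), and its place was 62 in both libraries.

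Mir675 lies 77.8 kb away from Mir483 on the same strand, at 142577064 to 142577147 (ENSMUSG00000076275.1). It falls in an exon of 3 of the 4 H19 transcripts that span it, and in an intron of the other one, and its count does not tell arms from other short pieces of that exon. In mouse placenta, miR-675 is known to restrain growth. Mir675 was the lowest of the 5 genes, with 518 and 767 reads, or 199 CPM (182 to 217) in replicate 1 and 179 CPM (166 to 192) in replicate 2. Its mean was 189 ± 14.0 CPM (SD, n = 2) at place 174, close to the median detected gene at 150 CPM. Reads of Mir483 outnumbered those of Mir675 by 14.5 times in replicate 1 (95% exact binomial interval 13.3 to 15.9) and 15.5 times in replicate 2 (14.4 to 16.7). The intervals overlap, and the log2 ratio averaged 3.91 ± 0.07 (SD, n = 2). The H19 and Igf2 RNAs themselves were not measured in these libraries.

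The order Mir335, Mir296, Mir483, Mir298, Mir675 was the same in both libraries. Mir335 exceeded Mir296 by 9.49 times in replicate 1 and 10.1 times in replicate 2. The step between Mir296 and Mir483 was narrower, at 1.60 and 1.37 times, and its mean gap was 2.43 times the SD of Mir296. Mir483 exceeded Mir298 by 1.37 and 1.32 times. Mir298 exceeded Mir675 by 10.6 and 11.7 times. With 2 libraries the smallest two-sided p of an exact test is 0.5, so this order carries no p-value.

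Together the 5 genes held 5.03% ± 0.439 of counted reads on microRNA genes (SD, n = 2), with 5.34% in replicate 1 and 4.72% in replicate 2. Mir335 made up 81.5% ± 0.322 of this sum, Mir296 8.33% ± 0.393, Mir483 5.64% ± 0.350, Mir298 4.20% ± 0.360 and Mir675 0.376% ± 0.00509. Without Mir335, the other 4 genes held 0.932% ± 0.0654 of counted reads.

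**Figure D1:**
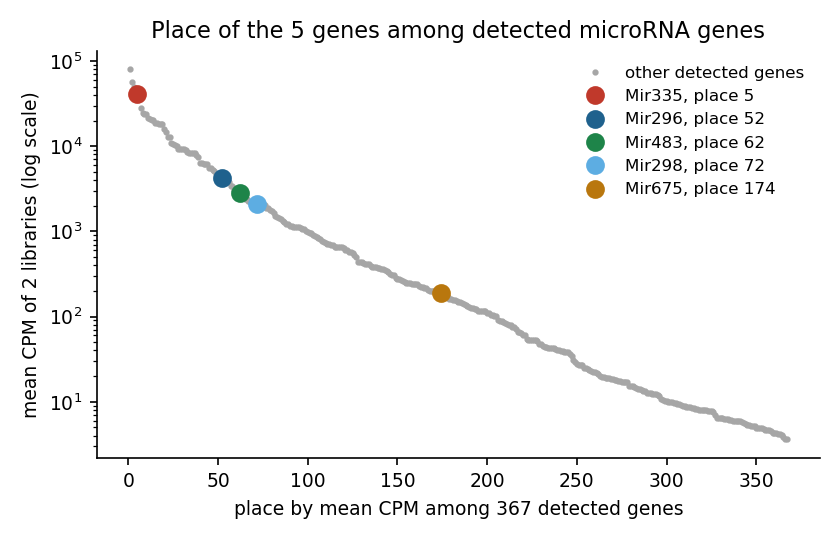
Mean CPM on a log axis against place among the 367 detected genes, with the 5 genes in colour and all others in grey. Mir335 is at place 5, Mir296, Mir483 and Mir298 lie at places 52, 62 and 72, and Mir675 is at place 174.

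The genes nearest in level to the other 4 could not be ordered against them. Mir425 (4432 ± 939 CPM) and Mir139 (4001 ± 132 CPM) flanked Mir296. Mir433 (2832 ± 78.2 CPM) and Mir192 (2771 ± 195 CPM) flanked Mir483. Mir324 (2136 ± 86.3 CPM) and Mir1983 (2091 ± 178 CPM) flanked Mir298, while Mir20b (192 ± 46.7 CPM) and Mir125b-2 (180 ± 5.40 CPM, with a copy at another locus) flanked Mir675. Each of these 8 genes was above its partner in 1 library and below it in the other.

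The surroundings of the 5 genes were then described, since neighbours within 1 Mb share a chromosomal region but not necessarily a transcript. Around Mir335, the cluster of Mir182, Mir183 and Mir96, known from sensory cells, lies about 572 to 575 kb away on the opposite strand. Mir182 stood at 329 ± 102 CPM, Mir183 at 309 ± 5.23 CPM and Mir96 at 137 ± 13.2 CPM. On the other side, 321 kb away and also on the opposite strand, Mir29a, a regulator of matrix genes, stood at 1116 ± 106 CPM. Mir335 exceeded Mir29a, the highest of its 6 counted neighbours, by 36.6 times in replicate 1 and 36.8 times in replicate 2. Mir29b-1 was at 11.6 ± 3.39 CPM but shares a word with Mir29b-2 and Mir29c, so its count is uncertain.

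Apart from each other, Mir483 and Mir675 had neighbours with few reads or none. Mir7063 had 5 reads in each library, Mir7064 had 4 in replicate 1 and 2 in replicate 2, and Mir3104 had 0. In replicate 1 a count of 0 allows a level of up to 1.15 CPM, and in replicate 2 one of up to 0.700 CPM. Within 1 Mb of Mir296 and Mir298, Mir6340 and Gm27591 had 0 reads, and Gm27591 shares words with 19 other loci, so its count sets no limit. Mir296 and Mir298 were thus the 2 microRNA genes with reads in that window.

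**Figure D2:**
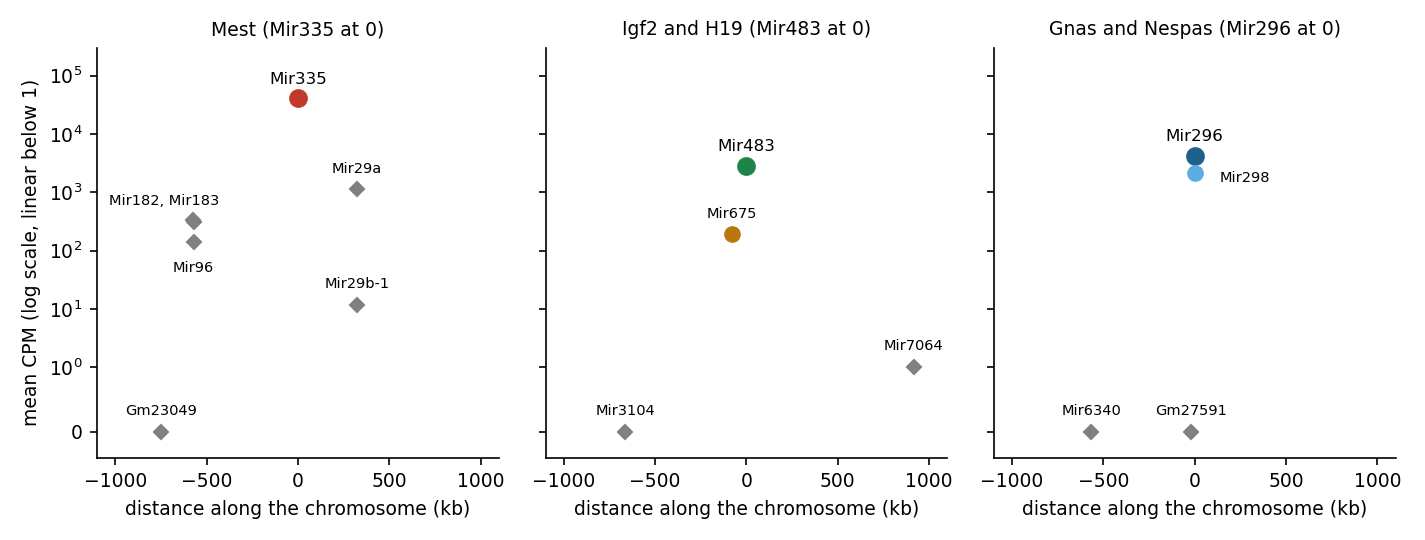
Mean CPM (log axis, linear below 1) of counted microRNA genes against distance in kb from Mir335, Mir483 and Mir296, within 1 Mb; circles are the 5 genes and grey diamonds other genes. Mir335 lies above Mir29a at 1116 CPM and all other neighbours, and the 2 other windows hold no further gene above 2 CPM.

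The Dlk1-Dio3 domain on chromosome 12, a large imprinted group of microRNA genes, gives a scale for these levels. Of 58 genes listed for it, 50 were counted here and 8 were not analysed here. Any reads of these 8 would raise the Dlk1-Dio3 sum and lower the ratios to it. The sum over the 5 genes was 0.295 of the Dlk1-Dio3 sum in replicate 1 and 0.266 in replicate 2, a log2 ratio of -1.84 ± 0.11 (SD, n = 2). Without Mir335 the log2 ratio was -4.27 ± 0.08. The median gene stood at 2828 CPM among the 5 genes, 945 CPM among the 50 Dlk1-Dio3 genes and 150 CPM among all detected genes. Of the 50, 45 were detected and 3 had no read in either library, so these medians do not rest on the same filter. Mir335 lay above all 50 counted Dlk1-Dio3 genes, of which Mir411 was highest at 21670 ± 370 CPM, while 13 of them lay above Mir296, 15 above Mir483, 20 above Mir298 and 37 above Mir675. Mir411 shares a word with Mir758, so its count is uncertain.

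A second list covered 2 further places. It held Mir184, reported as paternally expressed in mouse brain, and 12 Mir344 genes of the Prader-Willi region, and 1 of these 13 genes was detected. Mir184 had 51 and 62 reads, or 19.6 and 14.5 CPM in replicates 1 and 2. Among the Mir344 genes, 2 had a read and 10 had none in either library. Since 11 of the 12 share words with another locus, their counts set no limit on their level. The list does not cover all imprinted loci outside chromosome 12: it leaves out the cluster within Sfmbt2 on chromosome 2, where Mir467c had 5793 reads in replicate 1 and 8797 in replicate 2, or 2222 and 2052 CPM. Mir467c is 1 gene of that cluster, and whether it shares words with another locus was not checked, so its count is uncertain.

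**Figure D3:**
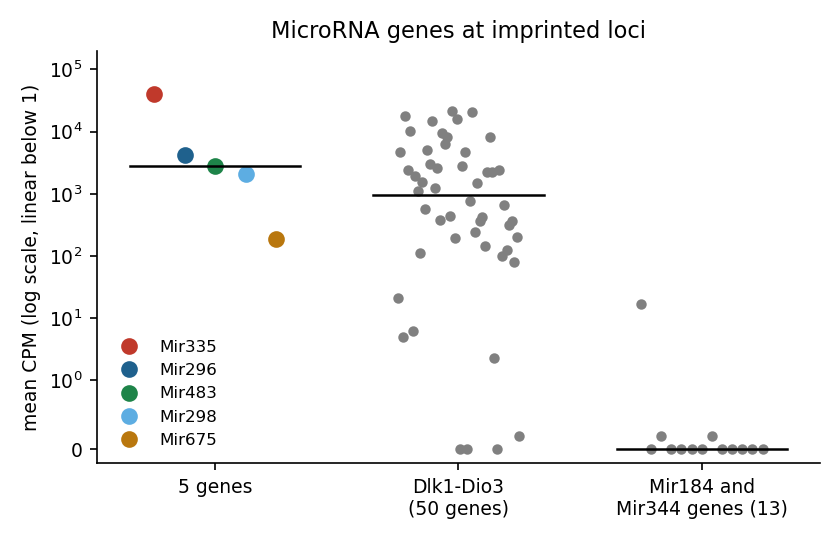
Mean CPM (log axis, linear below 1) of single genes, as points, and list medians, as lines, for the 5 genes, 50 Dlk1-Dio3 genes, and Mir184 with 12 Mir344 genes. The medians of the first 2 lists are 2828 and 945 CPM, and Mir335 is above all Dlk1-Dio3 genes shown. The median of the last list, at 0 CPM, rests mostly on Mir344 genes, and for 11 of these 12 the counts set no limit.

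The 2 libraries differed for Mir335 and Mir296 beyond counting error, and both genes were lower in replicate 2. Mir335 was at 38297 CPM in replicate 2 against 43588 CPM in replicate 1, a log2 difference of -0.19 (95% interval -0.20 to -0.18; two-sided exact binomial test, adjusted p = 2.04e-242 by Benjamini-Hochberg over 711 genes). Mir296 differed by -0.27 (-0.31 to -0.24; adjusted p = 2.85e-54, same exact test). This test compares libraries, not conditions, and knows counting error only.

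Mir675 had a log2 difference of -0.15 (-0.31 to 0.01; adjusted p = 0.219, exact binomial test). For Mir483 it was -0.05 (-0.09 to -0.01; adjusted p = 0.066, exact binomial test), and for Mir298 it was -0.0037 (-0.05 to 0.05; adjusted p = 1, exact binomial test). These 3 did not pass the threshold of 0.05, which does not show that they were equal. Mir483 passed it with counts from both strands (adjusted p = 0.0497) and over the 367 detected genes alone (adjusted p = 0.0362, exact test).

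Over all 711 genes with a read, 20.1% were called, 8.58% as higher and 11.5% as lower in replicate 2. Of the 5 genes, 2 were called, both as lower. Among the 185 genes with at least 1000 reads in total, 58.4% were called, so a call at these depths is common. In size, the difference of Mir335 was near the median absolute log2 difference of the 367 detected genes, 0.17, and that of Mir296 was larger. Of these genes, 172 differed more than Mir335, 131 more than Mir296 and 363 more than Mir298. They include genes with few reads, whose counting error is larger, and sizes were not compared at like depth. Next in level, Mir26b below Mir335 differed by -0.21, while Mir425 and Mir139 around Mir296 differed by 0.44 and -0.07. The coefficients of variation of the 5 genes ran from 0.179% for Mir298 to 13.4% for Mir296, beside a biological coefficient of variation of 13.3% over the detected genes. The value for Mir298 lies below its counting error of 1.35% in replicate 1 and 1.05% in replicate 2. It is therefore no measure of how much Mir298 varies.

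The library totals also moved with 1 abundant red cell gene. Mir451a was at 26342 CPM in replicate 2 and 10750 CPM in replicate 1. The other red cell genes listed, Mir144 and Mir486, were not higher in replicate 2. Mir144 was at 5873 CPM in replicate 2 against 6405 CPM in replicate 1, and Mir486 at 820 against 834 CPM. With Mir451a left out of the totals, an alternative chosen after seeing the data, Mir335 still differed by -0.16 and Mir296 by -0.25 in log2, both still past the threshold. The part of red cell content in these differences was not tested.

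**Figure D4:**
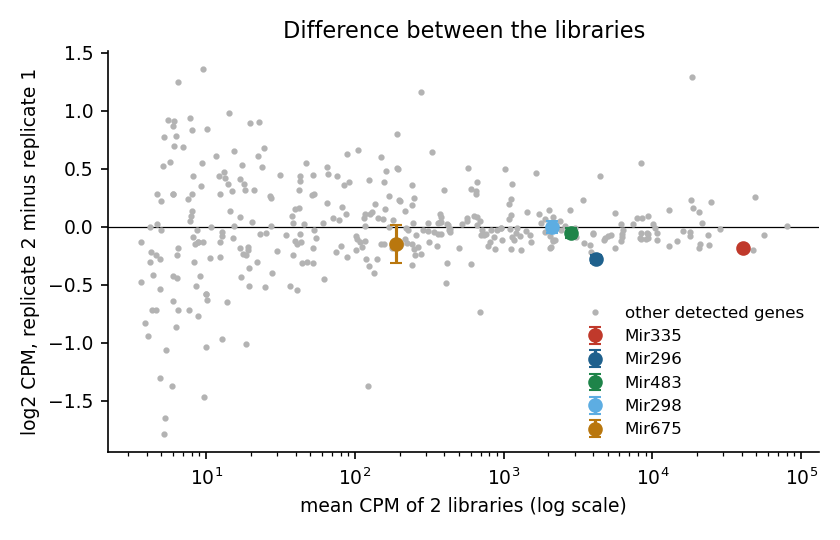
Log2 CPM of replicate 2 minus replicate 1 against mean CPM on a log axis for the 367 detected genes, with the 5 genes in colour and bars for their 95% exact binomial intervals. Mir335 and Mir296 lie at -0.19 and -0.27, and Mir298 lies at -0.0037, all within the range of the other detected genes, which include genes with few reads.

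The hairpins were last described by features that played no part in their choice. GC content was 63.3% in Mir296, 63.1% in Mir675, 58.9% in Mir483, 53.7% in Mir298 and 42.9% in Mir335. Against the median of 50.5% over 315 hairpins of detected genes with a RefSeq sequence, 4 of the 5 were GC-richer, and Mir335, the most abundant of the 5, was the exception. Predicted folding energies ran from -56.0 kcal/mol for Mir675 to -33.8 kcal/mol for Mir483, with a median of -36.7 kcal/mol over the 315 hairpins. These totals also depend on hairpin length. Per base, all 5 lay below the median of -0.436 kcal/mol, from -0.667 for Mir675 to -0.452 for Mir335, with Mir483 at -0.463. The hairpin with the lowest read count of the 5 thus had the lowest predicted energy, a description of 5 sequences with no test.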

How the data were processed

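The deposited tables hold raw counts of reads per microRNA gene. Build mm10 and GENCODE annotation M4 are named in the lists of files that the authors deposited with each library. The sources used here name neither an aligner nor a counting program. Every table gives counts from both strands, from the strand of the gene, which were used, and from the opposite strand. Rows for unmapped reads, reads at several places and reads outside genes, 62.1% of reads in replicate 1 and 61.8% in replicate 2, stayed out of totals and tests.

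Names and positions came from GENCODE M21, on the same build, which matched 1894 of 1973 identifiers. Totals of each library scaled counts to CPM. The 2 libraries were compared by a two-sided exact binomial test with Benjamini-Hochberg adjustment. It was tried on simulated counts that held set changes and counting error only, so the trial does not cover other spread between libraries. Intervals and the upper limit of 3 counts that a count of 0 allows cover counting error only. P-values measure the difference between these 2 libraries. Scaling alternatives used edgeR 4.0.16 (TMM, and the common dispersion over detected genes) and DESeq2 1.42.0. Folding used RNAfold 2.7.2, and other steps Python 3.11.15 with scipy 1.17.1.

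Genes were named by a fixed rule. It covered the 5 genes, those next in level above and below each, genes with a shared seed and counted neighbours within 1 Mb. It also covered the highest genes of each list, of which not all are named for the hepatocyte and Dlk1-Dio3 lists. The genes with a match over bases 2 to 7, Mir451a and Mir467c were named after their values were seen. So were the Mir199a genes and the muscle genes outside the list. The members and lists were chosen with earlier results of these data known.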

Additional observations from a re-analysis of the deposited data

How the results depend on the processing

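With counts from both strands the levels were 36669 CPM for Mir335, 2533 for Mir483, 169 for Mir675 and 1884 for Mir298, their sum with Mir296 was 45012 CPM, and the places of Mir335, Mir296, Mir483, Mir298 and Mir675 were 6, 58, 69, 79 and 183, since totals grow and other loci gain reads while the 5 genes gain none. Per 1000000 of all reads in the table the levels were 13945, 1429, 963, 717 and 64.3 for Mir335, Mir296, Mir483, Mir298 and Mir675, and the sum was 17119. Mir298, whose libraries differed by little, moved to 2099 CPM with DESeq2 size factors and to 2144 CPM with totals without Mir451a. The ratio to the Dlk1-Dio3 sum was -4.27 in log2 without Mir335, against -1.84 with it. At a minimum of 1 count, 559 genes were detected. The library difference of Mir298 turned from -0.0037 to 0.027 in log2 with TMM, 0.024 with DESeq2 and 0.019 without Mir451a in the totals, at adjusted p from 0.543 to 0.662 (exact binomial test). That of Mir483 passed the threshold at -0.055 with both strands and at -0.052 over detected genes. Called genes numbered 135 to 153, and 53.3% of them were higher in replicate 2 with TMM, against 42.7% with library totals. Leaving out each library in turn gave 38297 to 43588 CPM for Mir335, 3796 to 4593 for Mir296, 2777 to 2879 for Mir483, 2101 to 2107 for Mir298 and 179 to 199 for Mir675. No paired analysis was possible because both libraries belong to 1 group. Depth limits Mir675 most, with a counting error of 4.39% in replicate 1.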
